A study of Mus musculus with 2 samples.

Results

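Matricellular and provisional matrix genes are described here in mouse embryonic fibroblasts sorted by how far the permeability transition pore of mitochondria (mPTP) was open. The 8 members were chosen by gene name and were the fibronectin gene Fn1, the thrombospondin genes Thbs1 and Thbs2, the tenascin genes Tnc and Tnxb, the collagen-binding glycoprotein gene Sparc, the periostin gene Postn and the osteopontin gene Spp1. They were 8 of 23084 gene symbols in the deposited table, and each had a single row. The cells were primary embryonic fibroblasts of the outbred ICR mouse strain. They were loaded with the dye calcein together with cobalt chloride, which quenches the dye outside closed mitochondria, and both pools shared this treatment. Dim cells formed the high mPTP opening group and bright cells the low mPTP opening group, with 1 RNA-seq library each. No difference below therefore has a replicate check, no p-value is given, and every value describes these 2 libraries.

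Matricellular proteins are secreted into the extracellular matrix, where they bind receptors, growth factors and structural fibres and modify how cells attach, rather than bearing load themselves. Fibronectin and the proteins that bind it form the provisional matrix that fibroblasts lay down early in wound repair, before collagen fibres mature. Cultured fibroblasts make many of these proteins in quantity, and several of the genes respond to transforming growth factor beta (TGF-beta) and to mechanical tension.

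Levels are in FPKM, a read density per kilobase of gene that takes library depth into account, so genes of different length can be compared. The steps between low values put the depth at 16375735 reads for the high and 15060435 for the low mPTP opening library, where a read may stand for a read pair. Ratios carry 95% intervals that cover counting error only and say nothing of how cultures or sorts vary. Differences on the log2(FPKM + 1) scale, with a pseudocount of 1 FPKM, were used for counts and medians, with 1.5-fold on that scale as the size rule in place of a test. Of the 8 genes, 7 averaged 1 FPKM or more and counted as measured. Tnxb did not.

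Of the 7 measured genes, 1 was higher by at least 1.5-fold in the high against the low mPTP opening library, 0 were lower by that size and 6 lay between. The higher gene was Tnc, at 245 FPKM in the high and 156 FPKM in the low mPTP opening library. The background is 1.54% of the 11898 measured genes for the higher side and 4.38% for the lower side, so a single gene among 7 is too few to read a share from. With FPKM as deposited 183 genes were higher and 521 lower, 26.0% of them higher. Scaling the high mPTP opening library to the FPKM sum of the low one, an alternative added after seeing the data, gave 321 higher and 380 lower genes, 45.8% of them higher. Scaling each library to a sum of 1000000, which also makes the pseudocount small relative to the values, gave 450 and 543, 45.3% of them higher. Both scalings rest largely on the single row Gm23935, which held 5.89% of the high and 12.6% of the low FPKM sum. Most of the gap between the sums lies in that row. The median log2 difference of the 7 genes was -0.07, beside -0.02 over all measured genes, with 3 genes positive and 4 negative. Of all measured genes 45.4% were positive. The summed FPKM of all 8 genes was 3449 in the high and 3549 in the low mPTP opening library, 1.19% and 1.12% of all FPKM in those libraries. Apart from Tnc the measured genes lay within 1.5-fold.

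**Figure D1:**
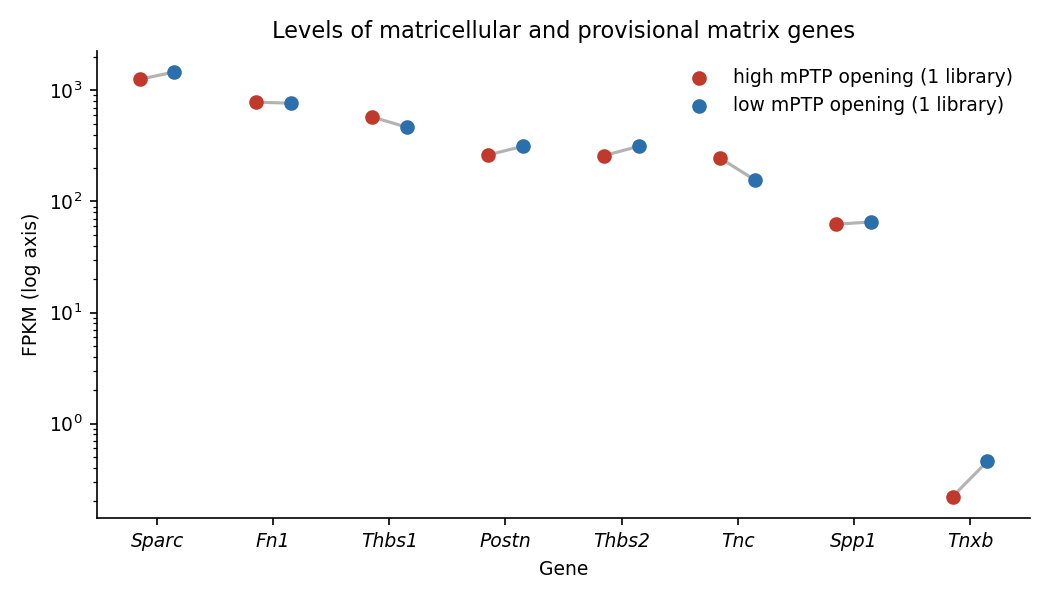
FPKM of the 8 genes (log axis) in the high (red) and low (blue) mPTP opening libraries, 1 library each, joined by a line per gene and ordered by the level in the high mPTP opening library. Sparc is at the top at 1259 and 1465 FPKM, Tnc shows the steepest slope among the abundant genes, and Tnxb lies far below the others at 0.220 and 0.457 FPKM.

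Most of these genes were among the abundant transcripts of the cells. Sparc ranked 16th of all symbols in the high and 13th in the low mPTP opening library, Fn1 24th and 29th, and Thbs1 46th and 62nd. Postn and Thbs2 followed, and Tnc ranked 123rd in the high and 238th in the low mPTP opening library. The order of levels was the same in both libraries but for Postn and Thbs2, neighbours whose exact Poisson intervals overlapped in each library. In the high mPTP opening library Postn was at 262 FPKM (259.7 to 265) and Thbs2 at 259 FPKM (256 to 262). In the low mPTP opening library Thbs2 was at 314.5 FPKM (311 to 318) and Postn at 313.8 FPKM (311 to 317). All other neighbours in the order were apart by more than counting error.

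Fn1 encodes fibronectin, the dimeric glycoprotein that cells stretch into fibrils and that carries binding sites for integrins, collagen and heparin. It lies on chromosome 1 from 71585520 to 71653200 on the minus strand (mm10, ENSMUSG00000026193). Fn1 was at 784 FPKM in the high and 767 FPKM in the low mPTP opening library, from 149987 and 134982 reads. The values lay close together, with a ratio of 1.02 (1.01 to 1.03), a difference of 2.19%. This is larger than counting error and no larger than the choice of scaling, under which its log2 difference of 0.03 ran from 0.058 to 0.16. The spread between cultures is not known. With FPKM as deposited it lay above 60.4% of measured genes. The table gives 1 value per gene, so the alternatively spliced forms of fibronectin, which differ in their extra domains, cannot be told apart.

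Tnc encodes tenascin-C, a six-armed glycoprotein that is scarce in most adult tissue and made at sites of development, injury and tension, where it interferes with adhesion to fibronectin. It lies on chromosome 4 from 63959785 to 64047015 on the minus strand (ENSMUSG00000028364). Tnc was at 245 FPKM in the high and 156 FPKM in the low mPTP opening library, from 31207 and 18232 reads. The ratio was 1.57 (1.55 to 1.60), the highest of the 8 genes, and the log2 difference was 0.65. Of all 11898 measured genes, 137 had a larger difference. Of the 887 genes averaging 50 FPKM or more, a level limit chosen after the values were seen, 7 did, and 1.35% of those genes were higher and 3.95% lower by at least 1.5-fold. Tnc passed the size rule under each of the 6 other pseudocounts and scalings tried, and did not reach 2-fold. All 4 scalings raised the ratio and so could only move Tnc further past the rule. The pseudocounts are small beside its level, so these settings are no check of the result. A long noncoding gene on the opposite strand, 8030451A03Rik, overlaps 2.26% of the Tnc exon sequence and was at 1.08 FPKM in the high and 1.01 FPKM in the low mPTP opening library.

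Tnxb encodes tenascin-X, the tenascin of collagen-rich connective tissue, whose loss in people causes a form of Ehlers-Danlos syndrome. It lies on chromosome 17 from 34670535 to 34719815 on the plus strand (ENSMUSG00000033327). Tnxb was at 0.220 FPKM in the high and 0.457 FPKM in the low mPTP opening library, which rest on 44 and 84 reads. Its direction was opposite to that of Tnc, with a ratio of 0.482 (0.327 to 0.702), or 2.08-fold lower (1.42 to 3.06). A count of 3 reads, the limit that a count of 0 allows, would be 0.0150 FPKM in the high and 0.0163 FPKM in the low mPTP opening library, so the gene was detected in both. Because of the pseudocount its log2 difference was only -0.26, and 6.41% of its transcript 50-mers are shared with the partial copy Tnxa, so its value is uncertain to that extent.

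Windows around gene starts, from 250 bases before to 50 after the start, were found in RefSeq (GRCm38.p6) for 6 of the 8 genes, 9 windows in all. The windows of Tnc, the gene past the size rule, and of Postn and Thbs2, the pair at nearly the same level and ratio, are shown, with 1 of the windows each for Tnc and Postn, to set the higher gene beside those with lower values. Capitals mark matches to the TATA box letters TATAAA on either strand. Only exact matches were searched, so the similar letters tatataag, nearer the Tnc start in the window shown, are in lower case.

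Tnc, chr4:64046887-64047186, minus strand: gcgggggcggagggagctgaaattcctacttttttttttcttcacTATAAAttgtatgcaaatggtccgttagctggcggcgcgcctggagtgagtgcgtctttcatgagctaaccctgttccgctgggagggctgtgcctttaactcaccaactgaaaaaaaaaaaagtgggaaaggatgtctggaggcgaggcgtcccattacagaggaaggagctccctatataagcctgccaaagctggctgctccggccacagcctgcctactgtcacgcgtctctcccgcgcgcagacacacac
Postn, chr3:54360857-54361156, plus strand: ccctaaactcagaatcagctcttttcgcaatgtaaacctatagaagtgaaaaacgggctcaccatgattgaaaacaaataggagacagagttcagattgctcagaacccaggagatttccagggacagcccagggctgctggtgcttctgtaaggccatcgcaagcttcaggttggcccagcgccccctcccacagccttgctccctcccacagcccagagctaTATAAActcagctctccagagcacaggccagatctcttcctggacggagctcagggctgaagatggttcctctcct
Thbs2, chr17:14694213-14694512, minus strand: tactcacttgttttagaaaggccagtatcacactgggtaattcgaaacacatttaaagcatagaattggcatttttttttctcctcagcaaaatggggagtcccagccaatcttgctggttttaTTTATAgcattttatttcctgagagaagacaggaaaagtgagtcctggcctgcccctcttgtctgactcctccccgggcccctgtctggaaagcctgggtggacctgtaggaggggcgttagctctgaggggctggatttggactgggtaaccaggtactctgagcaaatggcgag

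The TATA box letters lay 205 bases before the Tnc start shown, 26 before the Postn start and 126 before the Thbs2 start, there on the reverse strand. The Tnc start shown lies inside the gene as placed here. In the other Tnc window (chr4:64046966-64047265), whose start is the outer one at 64047015, the same letters lay 126 bases before the start. The letters were in 5 of the 9 windows, a count in which the overlapping Tnc windows hold the same letters and which includes 1 of the Spp1 windows. The Tnxb and Sparc windows and the other Postn and Spp1 windows did not hold them. Of all 32851 windows of this length, 13.6% did. The Sparc window (chr11:55420031-55420330) and the other Spp1 window (chr5:104435942-104436241) lie inside the genes as placed here. The other Postn window (chr3:54359017-54359316) lies before its gene. The region around the outer Sparc start, at 55423183, was thus not searched. The other motifs searched on both strands were AP-1 (TGANTCA), TEAD (GGAATG), the SMAD palindrome (GTCTAGAC) and the serum response factor CArG box, held by 7.81%, 14.7%, 0.213% and 1.63% of all windows. Among the 9 windows of these genes, AP-1 was matched once, in Tnxb, at 55 bases before the start, and the letters of the other three were not in these windows. No window held matches to more than 1 motif. The matches are descriptions of the sequence.

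Thbs1 and Thbs2 encode thrombospondin-1 and thrombospondin-2, trimeric glycoproteins that bind the receptors CD36 and CD47 and restrain the growth of blood vessels. Thrombospondin-1 is also known to release TGF-beta from its latent complex. Thbs1 lies on chromosome 2 from 118111876 to 118127133 (ENSMUSG00000040152) and Thbs2 on chromosome 17 from 14665500 to 14694262 (ENSMUSG00000023885). Thbs1 was at 577 FPKM in the high and 467 FPKM in the low mPTP opening library, a ratio of 1.24 (1.22 to 1.25). Thbs2 was at 259 FPKM in the high and 314.5 FPKM in the low mPTP opening library, a ratio of 0.823 (0.810 to 0.836). The paralogs thus differed in opposite directions, and neither passed the size rule. Thbs2 reads did not come out whole, so its interval is approximate. The table ends the gene at 14694262 and GENCODE M21 at 14694235, while the positions of the other 7 genes were the same in both.

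The balance of the thrombospondins can be read within each library, where no scaling between libraries enters. Thbs1 was 2.23 times Thbs2 in the high and 1.48 times Thbs2 in the low mPTP opening library. The ratio of these ratios was 1.503, with a 95% counting interval of 1.47 to 1.53 from the large-sample formula. Of the Thbs2 50-mers 0% occur in transcripts of any other gene, Thbs1 included, and the 1.89% of Thbs1 50-mers that do are shared with the opposite-strand gene Gm29233.

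**Figure D2:**
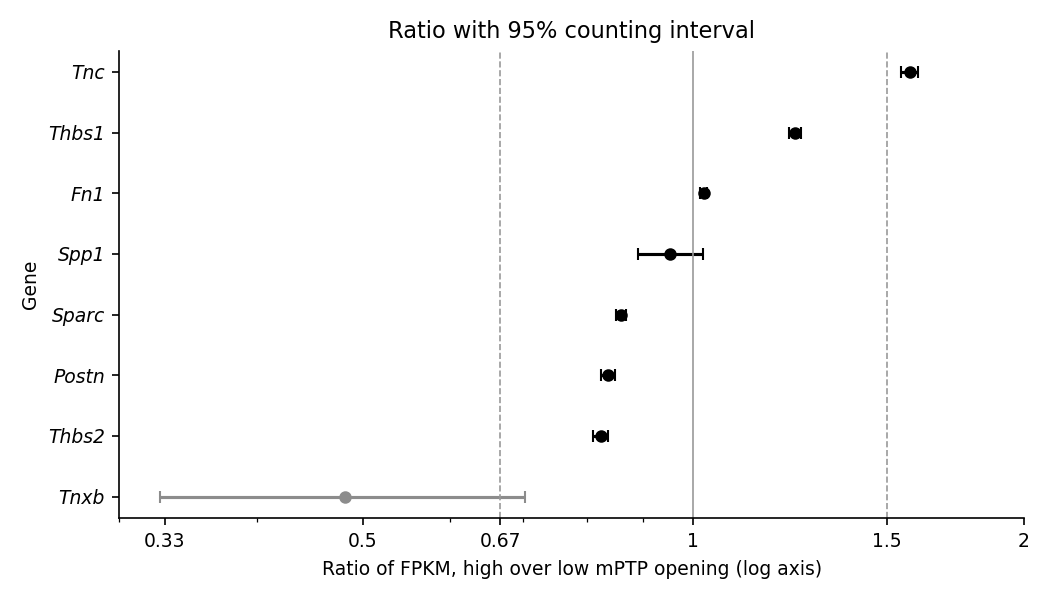
Ratio of FPKM in the high over the low mPTP opening library for each gene (log axis), with 95% counting intervals; dashed lines mark 1.5-fold in each direction and the grey point is Tnxb, which was not measured by the filter on low values. Tnc at 1.57 lies past the upper line, Thbs1 at 1.24 between 1 and that line, and Thbs2, Postn and Sparc lie close together from 0.823 to 0.859.

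Sparc encodes osteonectin, a small calcium-binding glycoprotein that binds collagen and guides its assembly into fibrils. It lies on chromosome 11 from 55394500 to 55423183 on the minus strand (ENSMUSG00000018593). Sparc was at 1259 FPKM in the high and 1465 FPKM in the low mPTP opening library, a ratio of 0.859 (0.851 to 0.868). Its log2 difference of -0.22 was -0.095 when each library was scaled to a common sum, which also took Postn from -0.26 to -0.13 and Thbs2 from -0.28 to -0.16. It held 36.5% of the summed FPKM of the 8 genes in the high and 41.3% in the low mPTP opening library. Within the libraries Sparc was 1.61 times Fn1 in the high and 1.91 times Fn1 in the low mPTP opening library.

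Postn encodes periostin, which has fasciclin domains, binds integrins and collagen and is known from periosteum, tendon and activated fibroblasts. It lies on chromosome 3 from 54361109 to 54391037 on the plus strand (ENSMUSG00000027750). Postn was at 262 FPKM in the high and 313.8 FPKM in the low mPTP opening library, a ratio of 0.836 (0.824 to 0.848). Periostin is known to bind tenascin-C and fibronectin. Tnc was 0.935 times Postn in the high and 0.496 times Postn in the low mPTP opening library, a ratio of ratios of 1.88 (1.84 to 1.93). The value for Tnc against Fn1 was 0.313 in the high and 0.203 in the low mPTP opening library, a ratio of ratios of 1.54 (1.51 to 1.57). Scaling between the libraries does not enter these ratios.

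Spp1 encodes osteopontin, a phosphorylated glycoprotein with an integrin-binding RGD sequence that is made by bone cells, macrophages and activated fibroblasts. It lies on chromosome 5 from 104435118 to 104441050 on the plus strand (ENSMUSG00000029304). Spp1 was at 62.4 FPKM in the high and 65.4 FPKM in the low mPTP opening library, from 1683 and 1624 reads. The ratio was 0.953 (0.890 to 1.02), so no difference was detectable with these reads, and the sign of its log2 difference, -0.07, turned to 0.055 when each library was scaled to a common sum. A same-strand gene, Gm42793, overlaps 18.8% of the Spp1 exon sequence and was at 0.0975 FPKM in the high and 0.106 FPKM in the low mPTP opening library.

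Spp1 is set here beside the macrophage markers, since macrophages are a known source of osteopontin. Of 16 macrophage markers 14 were 1.5-fold or more lower, beside 4.38% of all measured genes, and 2 lay between. The median of the markers was -0.94, beside -0.02 over all measured genes, and no marker was at 0 in either library. The summed level of the markers was 562 FPKM in the high and 1124 FPKM in the low mPTP opening library. The part of macrophage RNA in the Spp1 value was not tested. In sorted pools of this kind, fewer cells of a type and less RNA per cell cannot be told apart.

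**Figure D3:**
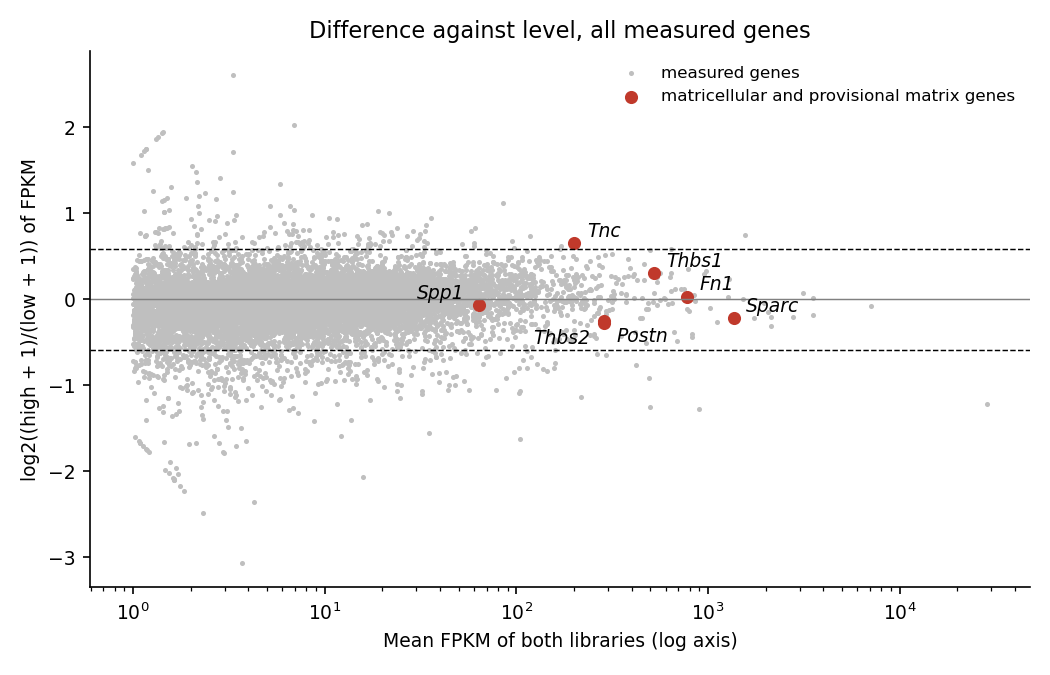
Log2 difference of (FPKM + 1), high over low mPTP opening, against mean FPKM of both libraries (log axis) for all 11898 measured genes (grey) and the 7 measured genes of the group (red); dashed lines mark 1.5-fold. Tnc, at 0.65, stands above the upper line, and Thbs2, Postn and Sparc lie from -0.28 to -0.22 below 0.

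The lists that follow hold related genes chosen by function, with earlier results of these data known. Beside their counts, 1.54% of all measured genes were 1.5-fold or more higher, 4.38% were lower and 45.4% were positive. Among other matricellular genes and their secreted relatives, 15 of 24 were measured, 1 was 1.5-fold or more higher, 1 was lower and 13 lay between, with 11 of 15 negative and a median of -0.20. Ibsp, which encodes bone sialoprotein, an RGD protein of the same family as osteopontin, was at 5.34 FPKM in the high and 2.99 FPKM in the low mPTP opening library, a ratio of 1.79 (1.39 to 2.32). Sparcl1, the closest relative of Sparc, was at 4.87 FPKM in the high and 9.52 FPKM in the low mPTP opening library, a ratio of 0.511 (0.434 to 0.601). The next in size were the CCN family genes Ctgf, at 86.0 FPKM in the high and 59.2 FPKM in the low mPTP opening library, and Wisp2, at 29.5 FPKM in the high and 20.6 FPKM in the low. Their ratios of 1.45 and 1.44 fell short of the size rule.

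Genes of fibronectin assembly, crosslinking and the provisional matrix had 13 of 19 measured members positive and a median of 0.07, with 0 past 1.5-fold in either direction. The hyaluronan synthase gene Has2 was at 3.96 FPKM in the high and 2.32 FPKM in the low mPTP opening library, a log2 difference of 0.58 that lies at the size rule without reaching it. Ltbp1, which encodes a latent TGF-beta binding protein of fibronectin fibrils, had a ratio of 1.35 (1.30 to 1.40). Hapln1, a hyaluronan link protein gene, had a ratio of 1.63 (1.27 to 2.14) but, because of the pseudocount, a log2 difference of only 0.40. Fbln5, which encodes the elastic fibre protein fibulin-5, was at 148 FPKM in the high and 112 FPKM in the low mPTP opening library, a ratio of 1.32 (1.29 to 1.35). The deposited table held no row under the fibrinogen gene symbols Fga, Fgb and Fgg.

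Of 21 measured receptor genes 0 were 1.5-fold or more higher and 2 were lower, with a median of 0.0057 that turned to -0.04 under other filters on low FPKM. The lower ones were Cd36, a thrombospondin receptor, at 9.05 FPKM in the high and 17.3 FPKM in the low mPTP opening library, and Stab1, which encodes a scavenger receptor that takes up SPARC, at 20.9 FPKM in the high and 36.7 FPKM in the low. Both are also expressed by macrophages, whose markers were lower with a median of -0.94, and the part of those cells in these values was not tested. The collagen-binding integrin gene Itga11 had a ratio of 0.694 (0.666 to 0.723), and Calr, whose product calreticulin also acts as a surface partner of thrombospondin-1, a ratio of 1.33 (1.31 to 1.36). The chains of the main fibronectin receptor, Itga5 and Itgb1, named here after their values were seen, had ratios of 1.20 (1.15 to 1.25) and 1.16 (1.14 to 1.18).

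The collagen list holds genes of collagens of the extracellular matrix. Of 12 measured, 0 were 1.5-fold or more higher and 1 was lower, with a median of -0.03 that turned to 0.09 when each library was scaled to a common sum. Col14a1, a fibril-associated collagen gene, was at 28.7 FPKM in the high and 44.2 FPKM in the low mPTP opening library, a ratio of 0.650 (0.622 to 0.680). Its log2 difference of -0.60 lies close to the size rule. Over the lists of related genes, those past 1.5-fold on the lower side numbered 4 as reported and 3 under each of the 4 scalings. Col3a1 was at 711 FPKM in the high and 939 FPKM in the low mPTP opening library, Col12a1 had a ratio of 1.11 (1.10 to 1.12), and Col5a2 one of 0.920 (0.909 to 0.932).

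Known inputs to transcription of these genes, namely TGF-beta and its receptors, SMAD factors and mechanically regulated cofactors, had 0 of 18 members past 1.5-fold and a median of -0.02, a sign that turned under each of the 4 scalings. With FPKM as deposited the 4 members furthest apart all had negative differences. Tead1, the next in size, was positive at 0.239, close in size to Smad3 at -0.241. Tgfb2 was at 17.8 FPKM in the high and 27.0 FPKM in the low mPTP opening library, a ratio of 0.658 (0.618 to 0.701). Because of the pseudocount its log2 difference of -0.58 lies at the size rule without reaching it. Tgfb1 had a ratio of 0.736 (0.678 to 0.799), the receptor gene Tgfbr2 one of 0.765 (0.739 to 0.791) and Smad3 one of 0.838 (0.782 to 0.899).

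**Figure D4:**
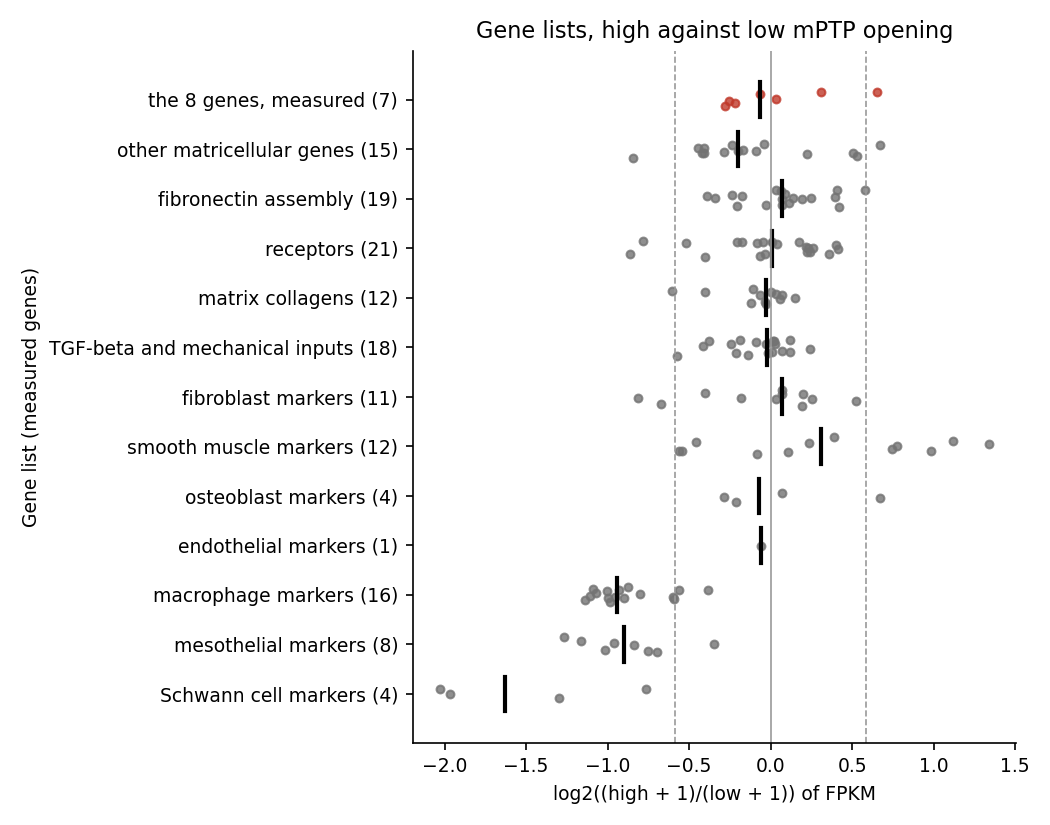
Log2 difference of (FPKM + 1), high over low mPTP opening, for the 7 measured genes of the group (red, top) and the measured genes of each list (grey, number in brackets); black bars are list medians and dashed lines mark 1.5-fold. The median of the group is -0.07, whereas the macrophage, mesothelial and Schwann cell marker medians are -0.94, -0.90 and -1.63 on this scale.

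The label of the cells as fibroblasts was set against markers. Of 12 fibroblast markers 11 were measured, with a median of 0.07, 0 higher and 2 lower by 1.5-fold, and Col1a1 was at 3204 FPKM in the high and 3059 FPKM in the low mPTP opening library. The lower ones were the proteoglycan genes Dcn and Lum, with ratios of 0.566 and 0.625. Smooth muscle markers, with a median of 0.31, had 5 of 12 genes 1.5-fold or more higher and 0 lower. The other 7 lay between, and 4 of them were negative, namely Abcc9 at -0.56, Notch3 at -0.54, Kcnj8 at -0.46 and Rgs5 at -0.08. Their summed level was 2151 FPKM in the high and 1279 FPKM in the low mPTP opening library, of which Acta2 alone made 1953 and 1166 FPKM. Mesothelial markers had 7 of 8 lower, with sums of 20.5 FPKM in the high and 46.8 FPKM in the low mPTP opening library, and Schwann cell markers had 4 of 4 measured genes lower, with sums over all 8 of 2.34 FPKM in the high and 15.03 FPKM in the low. These are low genes, and the Schwann cell median of -1.63 ran from -3.14 to -0.60 with the pseudocount and was -0.85 with no filter, while the mesothelial median of -0.90 was -0.45 with a pseudocount of 5 FPKM. Osteoblast markers, which bear on Sparc, Spp1 and Postn, had 1 of 4 measured genes higher, Ibsp, and 0 lower, with a median of -0.07 that turned to 0.04 with each library scaled to a common sum. Of the endothelial markers 1 of 6 was measured, Kdr, at -0.06. None of the smooth muscle, mesothelial or Schwann cell markers was at 0 in either library. The fibroblast marker S100a4 and the osteoblast marker Bglap2 each had 1 read in the high and 0 in the low mPTP opening library. The part of these cell types in the Tnc, Thbs1, Tnxb and other values was not tested.

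The annotation deposited with the table gave further shared terms. Extracellular space was assigned to 7 of the 8 genes, and heparin binding to 5, namely Fn1, Postn, Thbs1, Thbs2 and Tnxb. Among the 545 other measured genes annotated to extracellular space, 2.2% were 1.5-fold or more higher and 13.9% lower, with a median of -0.13, beside 1.54% and 4.38% of all measured genes. Among 87 other heparin-binding genes 1 was higher and 9 were lower, with a median of -0.12. Of 59 other integrin-binding genes 0 were higher and 5 were lower.

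**Figure D5:**
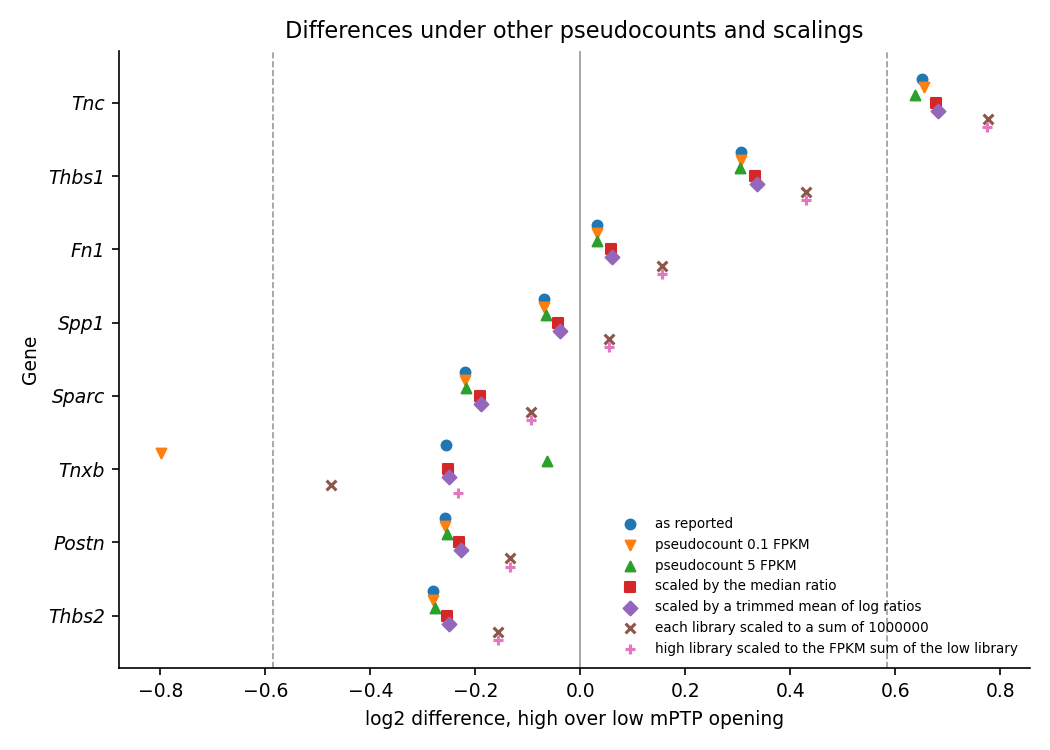
Log2 difference of each gene, high over low mPTP opening, with FPKM as deposited and a pseudocount of 1 FPKM (as reported) and under 6 other pseudocounts or scalings; dashed lines mark 1.5-fold. Tnc stays past the upper line, from 0.64 to 0.78, Spp1 crosses 0, and Tnxb moves between -0.80 and -0.06 with the pseudocount.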

How the data were processed

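Total RNA of the sorted cells was taken with TRIzol and made into TruSeq libraries, per the labels' protocols. The authors deposited FPKM values per gene. The submitters' processing notes name TopHat2 2.0.12 and Bowtie2 2.2.3 and the build mm10. The sources used here name no counter or annotation and do not say whether strand was used, so overlapping genes may share reads. The 2 libraries were matched to columns by name.

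FPKM times GENCODE M21 exon length gave whole reads, within 0.05 reads, for 93.5% of genes of up to 20 reads in the high and 93.2% in the low mPTP opening library, and for 85.7% of all genes in each. The reads summed to 1.10 times the depth given. Reads were rounded and used for exact Clopper-Pearson intervals of ratios; intervals and the floor of 3 reads cover counting error only. Rows of 1 symbol were added. With 1 library per group no test was possible. The 8 genes and the 12 lists were chosen with earlier results of these data known. All 8 genes were named, with up to 4 genes per list by size of difference among those with a mean of at least 1 FPKM, and any cell type marker. One gene of the lists is not reported here and was left out of them.

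The alternatives were pseudocounts of 0.1 and 5 FPKM, 4 scalings (1 added after seeing the data), other filters on low values and a size of 2-fold. The scripts were tested on simulated data. Computation used pandas 2.3.3, NumPy 2.4.6 and SciPy 1.17.1 under Python 3.11.15, and matplotlib 3.10.9 drew the plots.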

Additional observations from a re-analysis of the deposited data

How the results depend on the processing

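No paired analysis was possible because each group had 1 library, and no library could be left out. Of 48 values of the 8 genes under other pseudocounts and scalings, 46 kept their direction and 2 turned, both of Spp1, at 0.055 with each library scaled to a sum of 1000000 and at 0.054 with the high library scaled to the FPKM sum of the low one, an alternative added after seeing the data. Both raise the ratio of FPKM itself by 0.12 on the log2 scale, and took the median of all genes to 0.09 and 0.08. A pseudocount added to both values cannot change the sign of a difference. Every scaling raised the ratio, by 0.027 to 0.12 on the log2 scale, so only a small negative difference could turn. Among the 8 genes only Spp1, at -0.07, had one that small. The count of 46 is therefore no check of direction. Scaling to 1000000 also makes values larger against the pseudocount, so low genes that were lower moved further down, Tnxb among them. The single row Gm23935 held 5.89% of the high and 12.6% of the low FPKM sum, so most of the gap between the sums lies in this row. With either sum Fn1 was at 0.16, Thbs1 at 0.43, Thbs2 at -0.16, Sparc at -0.095 and Postn at -0.13, while Tnc was at 0.78 and 0.77 and Tnxb at -0.47 and -0.23. Scaling by the median ratio and by a trimmed mean gave 0.058 and 0.061 for Fn1, 0.33 and 0.34 for Thbs1, -0.25 and -0.25 for Thbs2, 0.68 and 0.68 for Tnc, -0.19 and -0.19 for Sparc, and -0.23 and -0.23 for Postn. Tnxb was at -0.80 for a pseudocount of 0.1 FPKM and at -0.064 for 5 FPKM.

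At 2-fold, 0 of the 7 genes were higher, 0 listed pathway genes were higher or lower, and 39 measured genes were higher and 114 lower. Measured genes past 1.5-fold numbered 323 higher and 880 lower at a pseudocount of 0.1 FPKM, 48 and 141 at 5 FPKM, 381 and 826 without a filter, 92 and 213 at a mean of at least 5 FPKM, 450 higher with a common sum of 1000000 and 321 higher with the sum of the low library. Of 85 measured genes in the pathway lists, 1 was higher and 4 were lower as reported, beside 1.54% and 4.38% of all measured genes. These counts were 3 higher and 6 lower at a pseudocount of 0.1 FPKM, and 0 higher and 2 lower at 5 FPKM. By median ratio and by trimmed mean 2 were higher and 3 lower. There were 5 higher and 3 lower with a common sum of 1000000, and 4 higher and 3 lower with the sum of the low library. At a mean of at least 5 FPKM, 0 were higher and 4 lower. Medians that changed sign were those of the collagens (0.093 and 0.093) and of the osteoblast (0.039 and 0.044) and endothelial (0.010 and 0.0068) markers with a common sum of 1000000 and with the sum of the low library, of the osteoblast markers without a filter (0.022), of the receptors without a filter (-0.038) and at a mean of at least 5 FPKM (-0.038), and of the TGF-beta and mechanical inputs by median ratio (0.0051), trimmed mean (0.0083) and both sums (0.10 and 0.10). Apart from the scalings, which shift the ratios by construction, the cause was not tested. Tnxb, with 44 and 84 reads, is the gene whose precision depth limits most.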
